A study of Arabidopsis thaliana with 12 samples.

Results

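Messenger RNA of inflorescences of Arabidopsis thaliana was compared between 2 genotypes, wild type (Col) and an artificial miRNA line directed at SEAP1 (amiR-SEAP1), in the 4 libraries whose value columns carry the tag FLW, 2 per genotype. These are 4 of the 12 libraries of the study, and 4 further mRNA libraries, tagged AI, hold the same genotypes. An artificial miRNA line expresses a redesigned miRNA precursor whose small RNA lowers the transcript it pairs with. The title of the series names the effect of SEAP1 on miRNAs and mRNAs as its subject. All plants were of ecotype Columbia (Col) and grew at 22 °C with 16 h of light and 8 h of dark per day. The promoter of the artificial miRNA, the number of lines and plants, the age at harvest and the meaning of FLW and AI are not stated by the labels. The column headers call the amiR-SEAP1 plants R15 in the FLW set and R155 in the AI set, and the labels do not say whether these are 1 line. Members of the comparison were 20812 of 33610 gene IDs, those whose FPKM (fragments per kilobase of transcript, scaled to library size) averaged at least 1 over the 4 FLW libraries.

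The libraries of a genotype were near repeats of each other. FPKM summed to between 680667 and 692266 per FLW library, and steps between low values put their relative depths within a factor of 1.16. Among well covered genes (FPKM multiplied by length in kilobases of 300 to 1000) the libraries of a genotype had a coefficient of variation of 1.49% in wild type and 1.73% in amiR-SEAP1, and among genes at 3 to 10 it was 9.02% and 8.93%. Between the FLW and AI libraries of the same genotype it was 17.9% and 12.4% at 300 to 1000. Each FLW pair was therefore counted as 1 sample per genotype, which leaves no test of the genotype within the set, and nothing in the labels ties the replicates to separate plants. A gene is called higher or lower below where both amiR-SEAP1 libraries lay beyond both wild-type libraries and the mean log2(FPKM + 1) differed by at least 1.5-fold. The added 1 damps differences of low genes. Changes below, and values in parentheses after a gene, are amiR-SEAP1 minus wild type on this log2 scale unless FPKM is named. Inflorescences hold many cell types, so fewer cells of a type and less RNA per cell cannot be told apart in these values.

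By this rule 399 genes (1.92% of those tested) were higher in amiR-SEAP1 and 653 (3.14%) were lower, and at 2-fold 101 (0.485%) were higher and 54 (0.259%) lower. Lack of overlap alone was common: by any amount, 37.3% of genes were higher without overlap and 38.2% lower, 75.5% in all. The median change over all genes was -0.003, and 5% of genes lay below -0.49 and 5% above 0.40. In the AI set, on the same genes, 1151 (5.53%) were higher and 1463 (7.03%) lower. There 229 (1.1%) were higher and 480 (2.31%) lower by 2-fold. Of the 399 genes higher in FLW, 206 were also higher in AI, 51.6% of the FLW list and 17.9% of the AI list, and 33 were lower there. Of the 653 genes lower in FLW, 194 were also lower in AI, 29.7% and 13.3% of the lists, and 54 were higher there. The sets share no library, but whether they differ by plant line, stage or harvest is not given, and the difference between their changes was not tested. limma's test of the 4 FLW libraries called 4708 genes higher (22.6%) and 5062 lower (24.3%) at an FDR of 0.05, which compares 4 libraries and not the genotypes. With 1 mean per genotype and set over both sets, limma called 0 genes (0.0%) in either direction, and the smallest adjusted p (Benjamini-Hochberg) was 0.302. This fit held no term for the set, so differences between the sets counted as error. Unadjusted p-values under 0.05 were found for 694 genes with higher and 559 with lower means.

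EMB140 (AT4G24270), a gene required for embryo development, had lower values in amiR-SEAP1. It lay at 15.7 and 16.2 FPKM in wild type and 4.76 and 4.55 FPKM in amiR-SEAP1, and the genotypes did not overlap. Wild type was 3.43-fold above amiR-SEAP1 in FPKM, and the log2 change was -1.58, against -1.48 in the AI set. The adjusted p was 0.357 in limma's test over both sets, and 0.258 in that test with set as the block. No symbol in the reference table reads SEAP1, and no source used here pairs SEAP1 with EMB140 or with another locus.

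Glucosinolates are sulphur-rich defence compounds of the mustard order, which release toxic isothiocyanates when myrosinases cut them after wounding. The aliphatic kind is built from methionine: its side chain is lengthened in chloroplasts, the product is turned into the core structure by cytochrome P450s, glutathione conjugation, C-S cleavage, glucosylation and sulphation, and the side chain is then modified. The transcription factors MYB28 and MYB29 switch the pathway on.

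Genes of aliphatic glucosinolate synthesis were higher in amiR-SEAP1 at nearly every step. Of the 21 tested members of the list, 17 were higher (against 1.92% of all genes) and 0 were lower, with a median change of 1.90 against -0.003 over all genes, and 8 of the 15 largest increases among genes with no overlap and a mean of 5 FPKM or more were members. The summed level of the list lay at 422 and 420.03 FPKM in wild type and at 899 and 908 FPKM in amiR-SEAP1. Of the other members of the list, UGT74C1 had no match in the reference, and MYB76, MAM3, CYP79F2 and AOP3 were below the filter. The list was chosen with earlier results of these libraries known, so its count is not independent evidence of its direction.

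**Figure D1:**
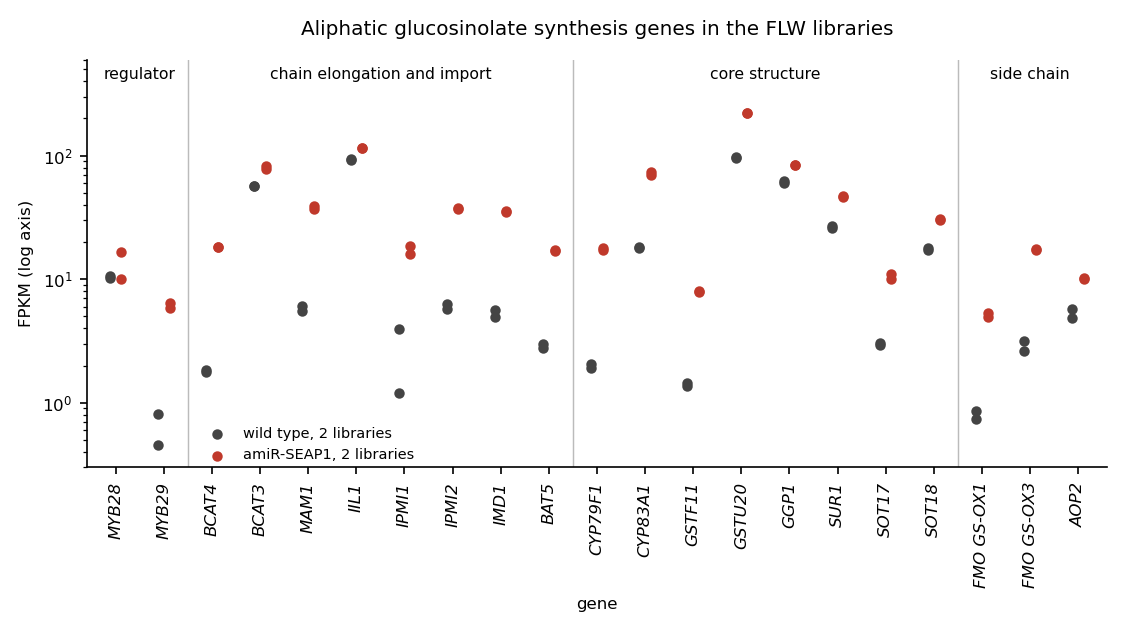
FPKM (log axis) of the 21 tested genes of aliphatic glucosinolate synthesis in the 4 FLW libraries, grouped by step, with wild-type libraries in grey and amiR-SEAP1 libraries in red. Both red dots lie above both grey dots for every gene except MYB28, and the grey dots of IPMI1 lie far apart.

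Chain elongation showed the largest values. BCAT4, the aminotransferase that takes methionine into the cycle, lay at 1.86 and 1.79 FPKM in wild type and 18.4 and 18.1 FPKM in amiR-SEAP1 (change 2.77). MAM1, the condensing enzyme of the cycle, lay at 6.02 and 5.54 FPKM in wild type and 39.4 and 37.1 FPKM in amiR-SEAP1, and its level was 6.62-fold that of wild type. IMD1, the dehydrogenase of the cycle, lay at 4.92 and 5.62 FPKM in wild type and 35.8 and 34.7 FPKM in amiR-SEAP1 (2.53). In all of these the genotypes stood far apart and the repeats close together. IPMI2, a small subunit of the isomerase, lay at 5.73 and 6.31 FPKM in wild type and 37.5 and 37.2 FPKM in amiR-SEAP1 (2.45). IPMI1, the other small subunit, lay at 3.97 and 1.2039 FPKM in wild type and 16.1 and 18.4 FPKM in amiR-SEAP1 (2.46), and its wild-type repeats differed by more than 2-fold. BAT5, which imports the 2-oxo acids into chloroplasts, lay at 2.97 and 2.76 FPKM in wild type and 16.9 and 17.2 FPKM in amiR-SEAP1 (2.22). Of the 8 genes of this step, 6 were called higher (against 1.92% of all genes), with a median of 2.46. BCAT3 (0.50) and IIL1, the large subunit of the isomerase (0.30), which also serve leucine synthesis, stayed under the threshold although their libraries did not overlap. The leucine synthesis and methionine genes that neighbour the pathway, in a list chosen after values were seen, held 0 of 13 called in either direction (median 0.07). Shares over all genes were 1.92% higher and 3.14% lower, at which a list this short would hold few calls. BCAT4 and IMD1, and GSTF11 and SOT18 of the next step, share bases with a neighbouring locus in the reference, and since the strand setting of the counting is not known their values are uncertain.

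Core structure genes followed, 7 of 8 higher (against 1.92% of all genes) with a median of 1.36. CYP79F1, which makes the aldoximes, lay at 2.08 and 1.90 FPKM in wild type and 17.3 and 17.9 FPKM in amiR-SEAP1 (2.64), and its close paralog CYP79F2, which could share reads with it, stayed below the filter at 1.07 and 0.640 FPKM in amiR-SEAP1. CYP83A1, which oxidises the aldoximes, lay at 18.178 and 17.8 FPKM in wild type and 69.6 and 74.1 FPKM in amiR-SEAP1 (1.94). The glutathione transferase genes GSTF11 and GSTU20 had changes of 1.90 and 1.19, and GSTU20 was the most abundant member, at 97.2 and 96.4 FPKM in wild type and 223 and 220.3 FPKM in amiR-SEAP1. SUR1, the C-S lyase shared with the indole branch, had a change of 0.79, and GGP1, which trims the glutathione conjugate, one of 0.45, under the threshold. The sulphotransferase genes SOT17 and SOT18 had changes of 1.53 and 0.77. Changes therefore ranged from 0.45 to 2.64 within the step.

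All 3 tested side chain genes were called higher (against 1.92% of all genes), which describes transcripts and not enzyme activity. FMO GS-OX3, a flavin monooxygenase gene that oxidises the sulphur of the side chain, lay at 3.16 and 2.65 FPKM in wild type and 17.3 and 17.591 FPKM in amiR-SEAP1 (2.24). FMO GS-OX1, of the same family, lay at 0.862 and 0.745 FPKM in wild type and 5.33 and 4.92 FPKM in amiR-SEAP1 (1.76). AOP2, of a dioxygenase gene family of side chain modification, lay at 4.83 and 5.72 FPKM in wild type and 9.96 and 10.3 FPKM in amiR-SEAP1 (0.83). Whether its transcript gives a working enzyme in these plants was not tested. The 2 regulators differed from each other. MYB29 lay at 0.807 and 0.457 FPKM in wild type and 6.40 and 5.80 FPKM in amiR-SEAP1 (2.13), while MYB28 lay at 10.6 and 10.3 FPKM in wild type and 10.1 and 16.6 FPKM in amiR-SEAP1, where the genotypes overlapped.

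Most supply and breakdown genes stayed under the threshold. Over all genes, 1.92% were called higher and 3.14% lower. Of 17 tested genes of sulphate activation, 1 was higher and 0 lower (median 0.10): AKN2, an APS kinase gene that makes the sulphate donor of the sulphotransferases, lay at 10.5 and 11.1 FPKM in wild type and 30.4 and 29.5 FPKM in amiR-SEAP1 (1.39). Of 10 transport and breakdown genes, 1 was higher and 0 lower (median 0.02): ESM1, which shifts breakdown toward isothiocyanates, lay at 37.6 and 39.3 FPKM in wild type and 96.0 and 92.2 FPKM in amiR-SEAP1 (1.27). The transporter genes GTR1 and GTR2 had changes of -0.01 and 0.06. Both lists were chosen after values were seen. Another list joined genes of indole glucosinolates and of camalexin, compounds that come from tryptophan, with myrosinase genes. Of its 13 tested genes, 1 was higher and 0 lower (median 0.11). That gene was GSTF9, a glutathione transferase gene (97.0 and 100.5 FPKM in wild type and 234 and 229 FPKM in amiR-SEAP1, change 1.22), while the entry enzymes CYP79B2 and CYP79B3 had changes of 0.48 and 0.36 and CYP83B1 one of 0.33. The myrosinase genes TGG1 and TGG2, members of the same list, which mark guard cells and myrosin cells, had changes of -0.35 and -0.24.

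In the AI set the list was higher by less. There 14 of the 21 aliphatic genes were called higher (against 5.53% of all genes) and 0 lower, with a median of 0.67, and in each of the 21 the change was smaller in size than in FLW, a difference that was not tested. MYB28 was the 1 gene below 0 there. MAM1 differed by 1.82 there, CYP79F1 by 1.49, BCAT4 by 0.86 and MYB29 by 0.67. Over both sets limma's test on pair means gave MAM1 an adjusted p of 0.612 and CYP79F1 one of 0.773, so neither passed. With set as the block in limma's test the adjusted p was 0.258 for each, and again neither passed. The wild-type sum of the list also differed between the sets, at 422 and 420.03 FPKM in FLW and 542 and 539 FPKM in AI, and the amiR-SEAP1 sum was 899 and 908 FPKM in FLW and 749 and 741 FPKM in AI.

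Anther development in Arabidopsis runs from the tapetum, the nurse layer that makes the sporopollenin wall and the lipid coat of pollen, to mature pollen with its own actin, cell wall and calcium genes. Most of these genes lay lower in amiR-SEAP1, a minority of tapetum and mature pollen genes by 1.5-fold. Of 21 tested tapetum and pollen wall genes, 4 were called lower (against 3.14% of all genes) and 0 higher (median -0.46), of 8 pollen coat genes 6 and 0 (median -0.60), and of 26 mature pollen genes 7 and 0 (median -0.52). By any amount and without overlap, 20, 7 and 25 of these genes were lower, against 38.2% of all genes.

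Among tapetum genes, QRT3, a polygalacturonase gene needed to separate the pollen of a tetrad, lay at 57.1 and 57.5 FPKM in wild type and 32.1 and 30.7 FPKM in amiR-SEAP1 (-0.85). MEE48, whose loss arrests embryos on the maternal side, lay at 165 and 166 FPKM in wild type and 96.8 and 98.5 FPKM in amiR-SEAP1 (-0.76), and LTP12, a lipid transfer protein gene of the tapetum, at 444 and 432 FPKM in wild type and 274 and 259.9 FPKM in amiR-SEAP1 (-0.71). CYP703A2, a fatty acid hydroxylase of sporopollenin synthesis, lay at 31.3 and 30.4 FPKM in wild type and 20.4 and 19.2 FPKM in amiR-SEAP1 (-0.62). In all 4 both wild-type libraries stood above both others. The remaining sporopollenin genes were lower by less, from -0.54 in the polyketide synthase gene LAP6 to -0.21 in the reductase gene TKPR1. Of the transcription factors, TDF1 overlapped at 1.90 and 1.75 FPKM in wild type and 1.83 and 1.87 FPKM in amiR-SEAP1, MYB80 had a change of -0.11 and AMS one of -0.28, while MS1, which acts after them, had one of -0.50. AMS, TKPR1, LAP5 and ABCG26 share bases with other loci in the reference.

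Pollen coat genes other than CER3 were lower by nearly equal amounts. The oleosin-like genes GRP14, GRP16, GRP17, GRP18 and GRP19, whose proteins coat the grain, differed by -0.56 to -0.68, and GRP19, the most abundant, lay at 1033 and 1033 FPKM in wild type and 657 and 636 FPKM in amiR-SEAP1. The extracellular lipase genes EXL4 and EXL6 differed by -0.66 and -0.59. CER3, a wax synthesis gene that also acts outside anthers, went the other way, at 152 and 154 FPKM in wild type and 189.5 and 194 FPKM in amiR-SEAP1 (0.32). Of the mature pollen genes called lower, the vacuolar aquaporin gene TIP5;1 lay at 16.2 and 16.2 FPKM in wild type and 9.13 and 9.52 FPKM in amiR-SEAP1 (-0.74), and the profilin genes PRF5 and PRF4 differed by -0.73 and -0.70. RALF4, a peptide signal that keeps pollen tubes intact, lay at 142 and 139 FPKM in wild type and 82.5 and 89.5 FPKM in amiR-SEAP1 (-0.70), ADF7, an actin-depolymerizing factor gene, at 52.7 and 52.0 FPKM in wild type and 31.7 and 34.9 FPKM in amiR-SEAP1 (-0.64), and PPME1, which encodes a pectin methylesterase that shapes pollen tubes, at 558 and 545 FPKM in wild type and 370.0 and 363 FPKM in amiR-SEAP1 (-0.59). The actin gene ACT12 differed by -0.62, and it and TIP5;1 share bases with other loci. Of the sperm line genes, DUO1 differed by -0.29 and DAZ1 by -0.52, both at low levels, and HAP2 was below the filter. All 26 tested genes had changes below 0, from -0.74 to -0.08.

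**Figure D2:**
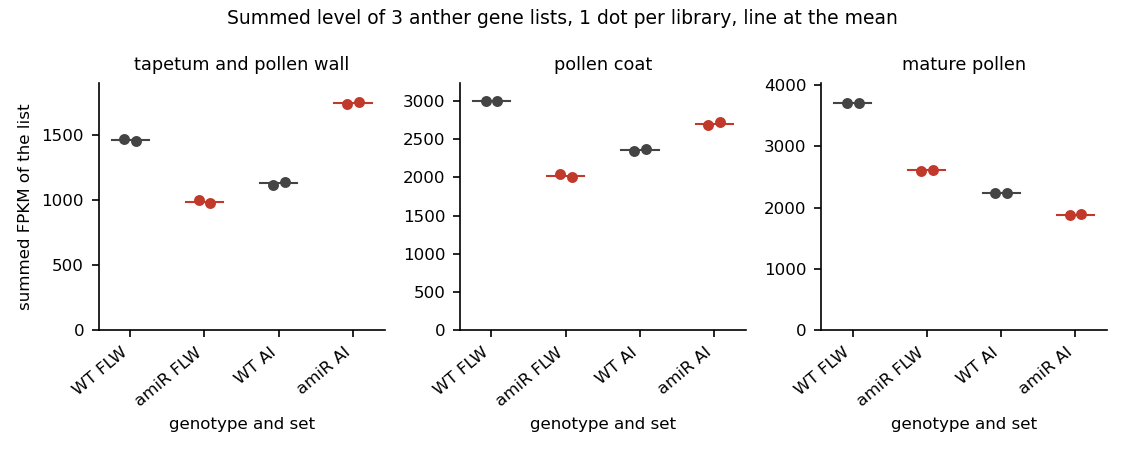
Summed FPKM of the matched members of 3 anther gene lists in each of the 8 mRNA libraries, with wild type in grey, amiR-SEAP1 in red and a line at the mean of each pair. In FLW each list is lower in amiR-SEAP1, whereas in AI the tapetum and pollen wall sum is higher in amiR-SEAP1.

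As sums over the matched members, tapetum and pollen wall genes lay at 1470 and 1453 FPKM in wild type and 998 and 979 FPKM in amiR-SEAP1, pollen coat genes at 3002 and 3001 FPKM against 2038 and 2009 FPKM, and mature pollen genes at 3711 and 3711 FPKM against 2603 and 2614 FPKM. Wild type was thus 1.478-fold, 1.484-fold and 1.42-fold higher. The AI set differed. There the tapetum and pollen wall sum was 1120.1 and 1142 FPKM in wild type and 1737 and 1755 FPKM in amiR-SEAP1. Of its 21 tested genes 16 were called higher and 0 lower, against 5.53% and 7.03% of all genes in AI. The pollen coat list held 1 higher and 0 lower there, and the mature pollen list 0 higher and 3 lower. No matched member of these 3 lists was at 0 in all 4 FLW libraries. Whether the genotypes' inflorescences held different shares of anther stages was not tested. With quantile normalization the number of pollen coat genes called lower was 3.

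Other tissue marker lists moved less in FLW. Floral identity genes had a median of -0.14 with 0 of 23 called in either direction. By any amount and without overlap, 17 of the 23 were lower (against 38.2% of all genes) and 3 higher (against 37.3%). Those named were WUS (-0.50), which keeps the stem cell pool, PI (-0.42) and AP3 (-0.36), which specify petals and stamens, and STK (-0.36), which specifies ovules. PI lay at 189 and 179 FPKM in wild type and 137 and 137 FPKM in amiR-SEAP1. Photosynthesis genes had a median of 0.03 and replication and mitosis genes one of 0.08, with 0 of 31 and 0 of 30 called. By any amount and without overlap, 17 and 18 of these were higher and 7 and 6 lower. Calls among all genes were 1.92% higher and 3.14% lower. The labelled tissue was met by its markers: of 25 floral identity genes matched, 23 passed the filter, and UFO and CLV3 did not.

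Of 11 nectary and ovary sugar genes, 3 were called lower (against 3.14% of all genes) and 0 higher (against 1.92%), with a median of -0.51. The cell wall invertase gene CWINV2 lay at 40.9 and 41.8 FPKM in wild type and 24.7 and 24.3 FPKM in amiR-SEAP1 (-0.73), the nectary invertase gene CWINV4 at 44.3 and 47.3 FPKM in wild type and 27.7 and 28.5 FPKM in amiR-SEAP1 (-0.68), and the sucrose carrier gene SUC1, which is active in pollen, at 161 and 161 FPKM in wild type and 96.9 and 98.9 FPKM in amiR-SEAP1 (-0.71). SWEET9, the sucrose exporter of nectaries, differed by -0.51, and SWEET15, of the same family, lay the other way (0.49), both under the threshold. SHN1, a regulator of cutin and wax, was the 1 of 20 cuticle genes called lower, at 52.0 and 53.6 FPKM in wild type and 29.2 and 29.4 FPKM in amiR-SEAP1 (-0.83, and -0.86 in AI). Of 19 secondary wall and anther opening genes 1 was called lower, NST2 (NAC066), a wall thickening factor of anthers, at 1.91 and 1.84 FPKM in wild type and 0.955 and 0.634 FPKM in amiR-SEAP1 (-0.68).

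**Figure D3:**
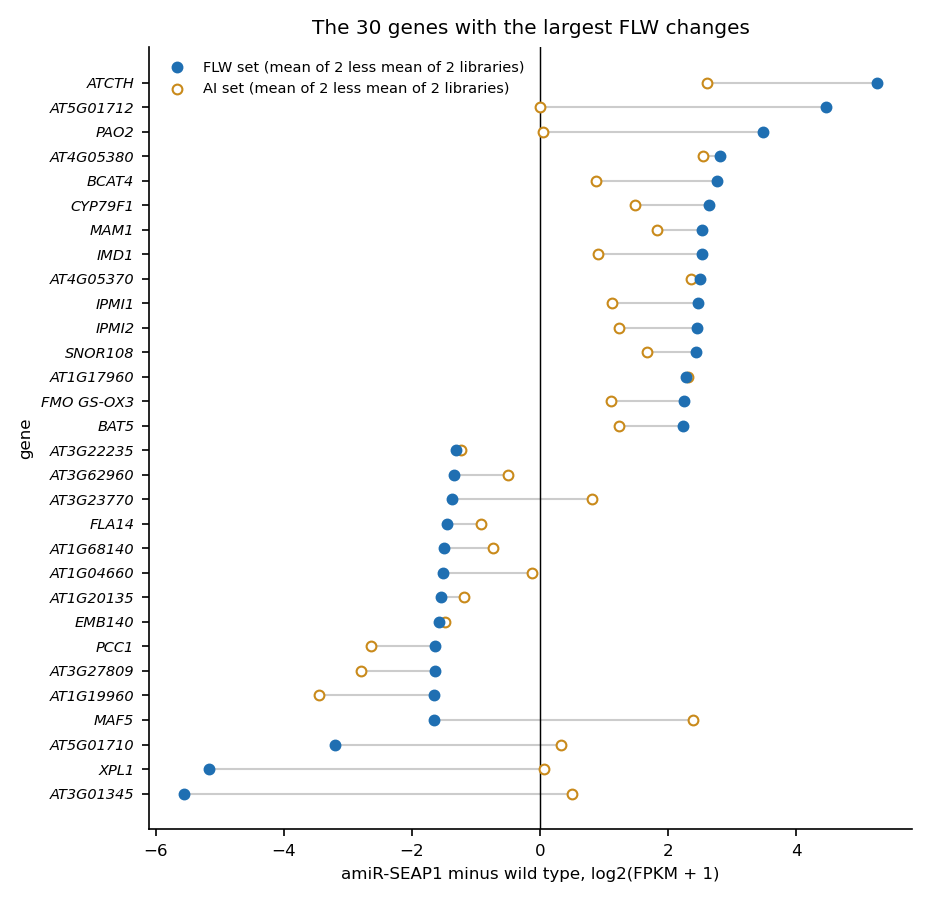
Change of the 15 genes with the largest increases and the 15 with the largest decreases in the FLW set (blue), with their change in the AI set (open, yellow), as amiR-SEAP1 minus wild type in log2(FPKM + 1). The aliphatic glucosinolate genes lie to the right in both sets, EMB140 and AT1G17960 have nearly the same change in both, and MAF5 lies on opposite sides.

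A few respiratory and stress genes were higher, while the list as a whole was not. Plants carry alternative oxidases that bypass the later complexes of the mitochondrial electron chain and are induced when mitochondria are disturbed. AOX1A, the main stress-induced alternative oxidase gene, lay at 13.97 and 14.6 FPKM in wild type and 41.4 and 41.2 FPKM in amiR-SEAP1 (1.47), and its change was 1.64 in AI. NAC044, a transcription factor gene of the DNA damage response that stops cell division, lay at 0.430 and 0.407 FPKM in wild type and 7.45 and 7.66 FPKM in amiR-SEAP1 (2.59, and 3.09 in AI, adjusted p = 0.302 in limma's test over both sets). Wild-type levels of NAC044 were low in both sets, and both amiR-SEAP1 libraries stood well above them. The alternative NAD(P)H dehydrogenase gene NDB4 differed by 0.83 and NDA1 by 0.47, but NDB2, which often moves with AOX1A, differed by -0.16, and AOX1B by -0.67. Of the 17 tested genes of the mitochondrial stress list 3 were higher (against 1.92% of all genes) and 1 lower (against 3.14%), with a median of 0.02. The retrograde regulator gene NAC017 stayed at 32.3 and 32.4 FPKM in wild type and 32.6 and 32.8 FPKM in amiR-SEAP1.

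Most DNA damage genes stayed under the threshold, but 12 of 19 tested lay higher by any amount without overlap, against 37.3% of all genes. In a list chosen after values were seen, 2 of 19 tested genes were higher (against 1.92% of all genes) and 0 lower (median 0.20). These were NAC044 and GMI1, named for its induction by gamma irradiation and mitomycin C, at 9.45 and 10.4 FPKM in wild type and 17.0 and 17.1 FPKM in amiR-SEAP1 (0.72), and it shares bases with another locus. PARP2, which marks broken DNA, differed by 0.54 and BRCA1 by 0.31. NAC085, the closest relative of NAC044, was below the filter, at 0 in both libraries of wild type and 0.966 and 0.990 FPKM in those of amiR-SEAP1. Other large increases, in genes with no symbol in the reference, were AT4G05380 at 0.526 and 0.623 FPKM in wild type and 10.4 and 9.75 FPKM in amiR-SEAP1, AT4G05370 at 1.32 and 0.947 FPKM in wild type and 12.3 and 9.77 FPKM in amiR-SEAP1 and AT1G17960 at 1.51 and 1.08 FPKM in wild type and 9.99 and 10.2 FPKM in amiR-SEAP1. These 3 differed by 2.81, 2.49 and 2.28 in FLW and by 2.54, 2.35 and 2.32 in AI.

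**Figure D4:**
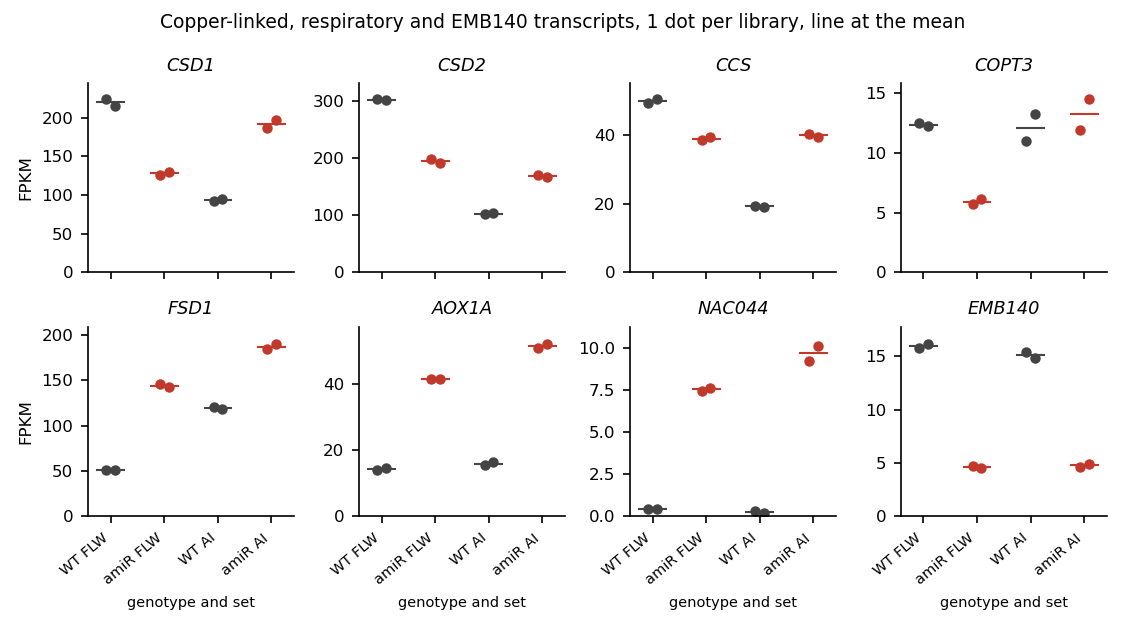
FPKM of 8 genes in each of the 8 mRNA libraries, with wild type in grey, amiR-SEAP1 in red and a line at the mean of each pair. CSD1, CSD2 and CCS are lower in amiR-SEAP1 in FLW and higher in AI, and FSD1, AOX1A, NAC044 and EMB140 keep their direction in both sets.

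Copper proteins are a known output of miRNA control: when copper is short, miR398 lowers the copper/zinc superoxide dismutases CSD1 and CSD2 and their chaperone CCS, miR397 and miR408 lower laccases and plantacyanin, and the iron superoxide dismutase FSD1 takes over. CSD1 lay at 224 and 215 FPKM in wild type and 126 and 130.3 FPKM in amiR-SEAP1 (-0.77). CSD2 lay at 302 and 301 FPKM in wild type and 198 and 192 FPKM in amiR-SEAP1 (-0.63), and CCS at 49.2 and 50.5 FPKM in wild type and 38.6 and 39.5 FPKM in amiR-SEAP1 (-0.35). FSD1 lay at 51.5 and 51.3 FPKM in wild type and 145 and 143 FPKM in amiR-SEAP1, 2.80 times the wild-type level. In these 4 genes the repeats were close and the genotypes did not overlap. The laccase genes LAC4 and LAC17 differed by -0.49 and -0.45, the plantacyanin gene ARPN by -0.53, and the copper transporter gene COPT3 lay at 12.4 and 12.3 FPKM in wild type and 5.74 and 6.11 FPKM in amiR-SEAP1 (-0.95). SPL7, the regulator of the copper response, differed by 0.11, and the transporter gene COPT2, one of its targets, by 0.29. The copper list was chosen after values were seen. Of its 23 tested genes, 1 was higher (against 1.92% of all genes) and 3 lower (against 3.14%), with a median of -0.11.

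In the AI set the copper/zinc dismutases went the other way. CSD1 lay there at 92.4 and 94.6 FPKM in wild type and 187 and 197 FPKM in amiR-SEAP1 (1.03), CSD2 differed by 0.71 and CCS by 1.01, while FSD1 differed by 0.64. For CSD1 and CSD2 the wild-type libraries of the sets lay further apart than the genotypes did in either set: CSD2 was at 302 and 301 FPKM in wild type in FLW and at 102 and 103 FPKM in AI. CSD1 shares bases with another locus in the reference.

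Salicylate defence genes were lower at a few members. Salicylic acid is a plant hormone of defence against pathogens that feed on living cells. Of 16 tested genes 4 were called lower (against 3.14% of all genes) and 0 higher (against 1.92%), with a median of -0.05. PCC1, a small gene of defence and flowering time, lay at 12.8 and 13.0 FPKM in wild type and 3.46 and 3.51 FPKM in amiR-SEAP1 (-1.63, -2.64 in AI). WRKY70, a transcription factor gene that favours salicylate over jasmonate responses, lay at 17.604 and 18.6 FPKM in wild type and 9.80 and 10.1 FPKM in amiR-SEAP1 (-0.80), and its relative WRKY54 at 3.56 and 3.78 FPKM in wild type and 1.05 and 1.18 FPKM in amiR-SEAP1 (-1.14, -1.92 in AI). PR2, a glucanase gene induced by salicylate, differed by -1.44 at low levels, 2.87 and 3.51 FPKM in wild type and 0.485 and 0.602 FPKM in amiR-SEAP1. The synthesis gene ICS1 (0.13) and the receptor gene NPR1 (-0.05) stayed near wild type. With the filter at a mean of 5 FPKM 2 members were called lower, because PR2 and WRKY54 lie below that filter.

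Jasmonate genes, which act in wounding and stamen maturation, mostly stayed under the threshold. Of 30 tested, 1 was called higher (against 1.92% of all genes) and 1 lower (against 3.14%), with a median of -0.15. AOC1, an allene oxide cyclase gene of jasmonate synthesis, lay at 3.28 and 3.58 FPKM in wild type and 7.49 and 6.82 FPKM in amiR-SEAP1 (0.88), and VSP2, a storage protein gene induced by jasmonate, at 302 and 295 FPKM in wild type and 173 and 172 FPKM in amiR-SEAP1 (-0.79). The stamen transcription factor genes MYB21, MYB24 and MYB57 differed by -0.16, -0.26 and -0.33 in FLW and by -0.44, -1.42 and -1.65 in AI.

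**Figure D5:**
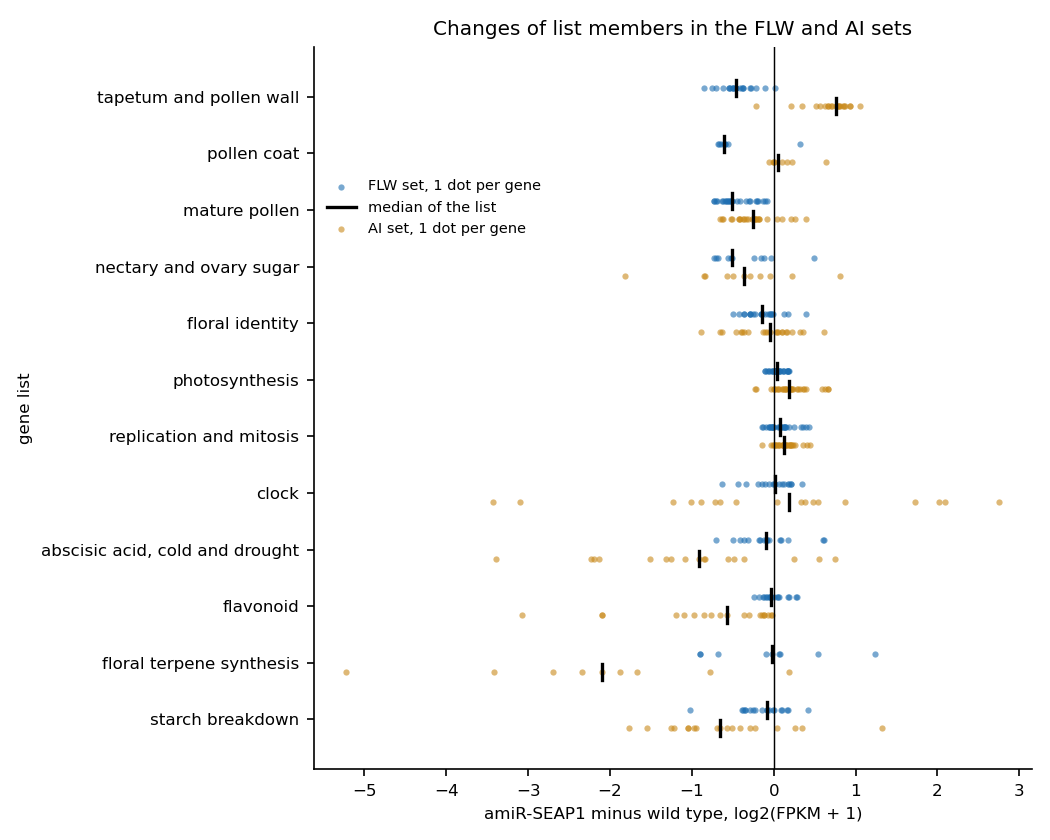
Change of each tested member (1 dot per gene) of 12 gene lists in the FLW set (blue) and the AI set (yellow), with a black bar at the median of the list. Medians of the anther lists lie below 0 in FLW, and clock, cold, flavonoid, terpene and starch genes spread over a wider range in AI than in FLW.

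Genes whose levels follow the time of day or the temperature were mostly near the same in the FLW genotypes, while they differed widely in AI. Of 18 clock genes 0 were higher and 1 lower in FLW (median 0.01), against 5 higher and 7 lower in AI. Over all genes, 1.92% were higher and 3.14% lower in FLW, and 5.53% and 7.03% in AI. LHY, a morning transcription factor of the clock, lay at 42.9 and 42.2 FPKM in wild type and 42.3 and 43.7 FPKM in amiR-SEAP1, where the genotypes overlapped (0.02), and differed by 2.76 in AI, from 5.44 and 4.87 FPKM in wild type to 39.4 and 41.7 FPKM. For LHY the AI wild-type libraries were thus the ones that stood apart. CCA1, its partner, differed by 0.06 and 2.09, and PRR5, a later-phased repressor of both, by -0.20 and -3.10, where AI wild type was at 40.3 and 39.991 FPKM and the other libraries were between 3.80 and 4.53 FPKM. The gene called lower in FLW was BOA, a relative of LUX, at 12.5 and 11.8 FPKM in wild type and 8.09 and 6.93 FPKM in amiR-SEAP1 (-0.63), and it shares bases with another locus.

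Cold and drought genes showed the same contrast between the sets. In FLW 2 of 17 were higher and 1 lower (median -0.09), and in AI 1 was higher and 11 lower (median -0.92). The shares over all genes were 1.92% higher and 3.14% lower in FLW and 5.53% and 7.03% in AI. COR15B, a chloroplast protein gene of cold tolerance, lay at 41.0 and 39.4 FPKM in wild type and 34.6 and 36.4 FPKM in amiR-SEAP1 (-0.17, -3.39 in AI, where wild type was at 412 and 408 FPKM). KIN1, a cold-induced gene, was the 1 called lower in FLW, at 318 and 314 FPKM in wild type and 194 and 193 FPKM in amiR-SEAP1 (-0.70), and ABF3, an abscisic acid response factor gene, lay at 13.6 and 13.5 FPKM in wild type and 21.4 and 21.3 FPKM in amiR-SEAP1 (0.62). Flavonoid genes held 0 of 19 called in FLW, where BAN, the anthocyanidin reductase of seed coat tannins, lay at 12.7 and 12.5 FPKM in wild type and 15.8 and 15.2 FPKM in amiR-SEAP1 (0.28), and 0 higher and 9 lower in AI (-3.08 for BAN). Starch breakdown genes held 0 higher and 1 lower of 19 in FLW, against 1 and 10 in AI. The 1 was BAM5, a beta-amylase gene, at 151 and 149.8 FPKM in wild type and 73.1 and 73.6 FPKM in amiR-SEAP1 (-1.02, -1.77 in AI).

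Floral terpene genes divided within FLW. These enzymes make the volatile scent of flowers. TPS10, a linalool synthase gene, lay at 60.9 and 62.0 FPKM in wild type and 32.7 and 31.9 FPKM in amiR-SEAP1 (-0.91). TPS14, which encodes another, lay at 62.8 and 64.5 FPKM in wild type and 33.5 and 33.9 FPKM in amiR-SEAP1 (-0.90), and TPS21, the caryophyllene synthase gene of the stigma, at 40.031 and 39.3 FPKM in wild type and 24.7 and 24.3 FPKM in amiR-SEAP1 (-0.68). TPS02, of the same family, lay the other way, at 1.57 and 1.66 FPKM in wild type and 5.22 and 5.12 FPKM in amiR-SEAP1 (1.24). The P450 genes of linalool metabolism did not move with the synthases: CYP71B31 lay at 25.6 and 24.7 FPKM in wild type and 24.8 and 24.7 FPKM in amiR-SEAP1, where the genotypes overlapped, and CYP76C1 and CYP76C3 differed by 0.07 and -0.09. In AI the same 3 P450 genes differed by -5.22, -1.67 and -1.88. In all, 1 of 9 genes was higher and 3 lower in FLW, against 0 and 8 in AI. Among all genes the shares were 1.92% and 3.14% in FLW and 5.53% and 7.03% in AI.

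The miRNA machinery, which the study addresses, differed by small amounts. Of 33 tested genes, EMB140 included, 0 were called higher and 1, EMB140, was lower, while 24 lay higher by any amount without overlap, against 37.3% of all genes (median 0.17). SDN2, of a family of exonucleases that degrade miRNAs, lay at 14.3 and 13.979 FPKM in wild type and 20.136 and 21.2 FPKM in amiR-SEAP1 (0.52), and SDN3 had a change of 0.47. CBP20, a subunit of the cap-binding complex, lay at 37.3 and 37.1 FPKM in wild type and 50.7 and 51.3 FPKM in amiR-SEAP1 (0.45), while the core genes DCL1, HYL1, SE and AGO1 differed by -0.15, 0.08, 0.13 and -0.04. Splicing factor genes had a median of 0.09 with 0 of 32 called (against 1.92% of all genes higher and 3.14% lower). Of these 32, 24 also lay higher by any amount without overlap, so this was not particular to the miRNA machinery. Of 53 tested transcripts that miRNAs target, 0 were called higher and 3 lower (against 3.14% of all genes), with a median of -0.01. These were CSD1, CSD2 and NF-YA2, a subunit of a CCAAT-binding factor and target of miR169. NF-YA2 lay at 9.94 and 9.82 FPKM in wild type and 5.83 and 5.99 FPKM in amiR-SEAP1 (-0.66). SPL2, a target of miR156, lay at 35.5 and 36.1 FPKM in wild type and 52.3 and 49.8 FPKM in amiR-SEAP1 (0.50), under the threshold. Auxin response genes (median 0.08) held 0 of 14 called and heat shock genes (median -0.04) 0 of 8.

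The remaining genes with the largest decreases were mixed. AT1G20135 lay at 20.6 and 20.5 FPKM in wild type and 7.06 and 5.82 FPKM in amiR-SEAP1 (-1.54), and FLA14, a fasciclin-like arabinogalactan protein gene, at 22.2 and 21.4 FPKM in wild type and 7.66 and 7.06 FPKM in amiR-SEAP1 (-1.45). AT1G19960 differed by -1.66 and AT3G27809 by -1.63, both from levels with wider repeats in wild type, 9.93 and 7.71 FPKM and 11.0 and 7.10 FPKM. Of the 15 largest decreases 7 were also called lower in AI (against 7.03% of all genes) and 2 higher (against 5.53%). Of the 15 largest increases, 8 of them in the aliphatic glucosinolate list, 12 were also called higher there. Among all genes called in FLW, 29.7% of the lower and 51.6% of the higher were called the same way in AI. SNOR108, a small nucleolar RNA gene, lay at 1.80 and 1.98 FPKM in wild type and 13.5 and 15.9 FPKM in amiR-SEAP1 (2.44). AT1G04660 (-1.52) and AT3G62960 (-1.35) were lower in FLW and not called in AI, and AT3G22235 was lower in both (-1.31 and -1.24). FLA14 and AT3G27809 share bases with other loci.

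Several of the largest changes rest on unstable or single-pair values. ATCTH (AT2G25900), a tandem zinc finger gene, lay at 0.601 and 0.0178 FPKM in wild type and 46.2 and 49.9 FPKM in amiR-SEAP1, but the AI libraries of amiR-SEAP1 were at 0.0376 and 40.4 FPKM, far apart. AT3G01345 was at 103 and 100.2 FPKM in wild type in FLW, at 1.21 and 1.14 FPKM in amiR-SEAP1, and at 0.0908 and 0.110 FPKM in wild type in AI. MAF5, a MADS-box gene of the FLC group that delays flowering, lay at 11.9 and 10.9 FPKM in wild type and 2.78 and 3.02 FPKM in amiR-SEAP1 in FLW, and at 1.17 and 1.31 FPKM against 10.6 and 10.7 FPKM in AI. AT1G68140 lay at 27.8 and 26.7 FPKM in wild type and 8.37 and 9.73 FPKM in amiR-SEAP1 in FLW, but its AI wild-type libraries were at 8.51 and 28.4 FPKM. In 4 of the 30 genes the repeats of a genotype differed by more than 2-fold in FPKM + 1 in one of the sets. The same held for only 58 of all 20812 tested genes. This measure passes over low values, such as those of PAO2 in wild type. AT5G01712 and PAO2 were among the largest increases, and XPL1 and AT5G01710 among the largest decreases. Each had a neighbouring gene ID whose FPKM moved the other way, while the sum of both IDs differed by far less.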

How the data were processed

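Per the submitters' processing notes, reads were aligned with HISAT2 to TAIR10. FPKM per gene were used as deposited by the authors, 1 file per library, per the file headers; the program that computed them, its annotation and its strand setting are not stated by the labels. Library depth in reads is unknown, so no counting interval is given. Symbols came from a RefSeq table (TAIR10.1), which matched 28932 of 33610 IDs and 20470 of the 20812 tested; 342 tested genes carry an ID only. Values were tested as log2(FPKM + 1) over genes averaging 1 FPKM or more in FLW. Fits used limma 3.58.1 in R 4.3.3 with Benjamini-Hochberg adjustment, on the 4 FLW libraries and on pair means over both sets, and were tested on simulated data. Python 3.11.15 with pandas 2.3.3 and numpy 2.4.6 did the rest. Changes are differences of mean log2 values. Named genes were the 15 largest increases and 15 largest decreases without overlap at a mean of 5 FPKM or more, up to 4 members per list by the same filter, and EMB140; further members are named for their role, with values known. The members and lists were chosen with earlier results of these data known. The lists on sulphate, transport and breakdown, leucine and methionine, copper and DNA damage were chosen after values were seen. So were the grouping into steps and the neighbouring gene IDs. Alternatives were the pseudocount, the filter, quantile and median ratio scaling, each library left out and a replicate block. Replicate numbers do not pair the FLW libraries: deviations of same-numbered libraries had r = -0.00433 across genes. Small RNA libraries were not used here.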

Additional observations from a re-analysis of the deposited data

Results flagged for a closer look

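The 118 genes named by rule were all chosen for lack of overlap in FLW, which 75.5% of tested genes showed. Of these 118, 26 also did not overlap in AI and lay in opposite directions in FLW and AI. The share of such genes among all tested genes was not counted. In 7 of the 26 the opposite changes reached 1.5-fold in both sets, each lower in amiR-SEAP1 in FLW and higher in AI. Over all tested genes, 54 of the 653 called lower in FLW (8.27%) were called higher in AI. Of the 399 called higher in FLW, 33 (8.27%) were called lower there. The difference between the sets was not tested. The FLW change minus the AI change, in log2(FPKM + 1), was -4.04 for MAF5, the flowering-time MADS-box gene, and -2.17 for AT3G23770. In the anther lists it was -1.62 for MEE48, -1.33 for CYP703A2 and -1.31 for EXL4. For the copper/zinc superoxide dismutase genes it was -1.8 for CSD1 and -1.34 for CSD2.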

How the results depend on the processing

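The median change over all genes stayed within 0.01 of 0 under every scaling and filter tried. With a pseudocount of 0.1 the genes higher and lower by 1.5-fold were 619 and 996, and by 2-fold 172 and 137, since low genes then weigh more. With the filter at a mean of 5 FPKM 253 were higher by 1.5-fold and 66 by 2-fold, of fewer genes tested. Leaving out each FLW library in turn gave 427 to 438 higher and 678 to 715 lower at 1.5-fold, and 97 to 112 and 54 to 71 at 2-fold. The aliphatic glucosinolate list held 14 to 18 members called higher against 17 as reported, with a median of 1.53 to 2.43. The 14 came from the filter at 5 FPKM, which tests fewer members, the 16 from leaving out genes of widely differing repeats, and the 18 from leaving out amiR-SEAP1 replicate 1. The alternative without genes of widely differing repeats was added after seeing the data. Over the 118 named genes, 77 of 1176 alternative values moved by more than 1 SD of the repeats. These moves fell on 68 of the 118 genes, and 45 of the 77 came from the pseudocount. Changes of sign were counted only for genes that differed by at least 1.5-fold, and there were 0. The alternatives that only choose which genes are tested cannot alter the value of a gene, yet their values are among the 1176. Over both sets limma called 0 to 1 genes higher and 0 lower when each library was left out, the 1 being ATCTH without amiR-SEAP1 replicate 3 (adjusted p = 0.0298). With the replicate block limma called 4534 higher and 4979 lower in the FLW libraries, whose numbers do not pair, and leaving out 1 library gave 3539 to 3817 and 4109 to 4191. With set as the block over both sets 0 were called in either direction, with 1444 and 1503 at an unadjusted p under 0.05. Depth in reads is unknown, and no genotype has a replicate of its own within FLW.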

Other observations

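AT4G20980, a gene with no symbol in the reference, lay higher in the amiR-SEAP1 libraries of FLW, at 50.7 and 53.2 FPKM, than in the other 6 mRNA libraries, at 11.7 to 16.2 FPKM. It was named after its values were seen.

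Some of the largest changes lie at gene IDs with a neighbouring ID whose value moved the other way. Whether the IDs of a pair stand for separate genes or for parts of 1 transcript was not tested. AT5G01710 was at 33.31 and 33.25 FPKM in FLW wild type and at 0.001434 and 13.01 FPKM in amiR-SEAP1, and its neighbour AT5G01712 was at 29.45 and 14.88 FPKM in amiR-SEAP1. Their sum was 33.31 and 33.25 FPKM in wild type and 29.45 and 27.89 FPKM in amiR-SEAP1. PAO2, a polyamine oxidase gene, was at 15.95 and 8.526 FPKM in amiR-SEAP1, and its sum with AT2G43018 was 37.72 and 38.08 FPKM in wild type against 35.51 and 37.16 FPKM. XPL1 was at 38.89 and 66.17 FPKM in FLW wild type and under 1 FPKM in the other 6 mRNA libraries, and its sum with AT3G17998 was 74.76 and 76.66 FPKM in wild type against 80.07 and 79.63 FPKM in amiR-SEAP1. These pairs were chosen after values were seen.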
